A study of Arabidopsis thaliana with 18 samples.

Results

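The genes described here are 44 genes of Arabidopsis thaliana that encode proteins of the cytosolic ribosome, out of 37336 genes counted in each library. They were listed by gene identifier and not by a cut on a measured value, though with earlier results of these data known. They fall into 21 families, of which 18 have 2 or more listed members. The small (40S) subunit accounts for 15 of them, the large (60S) subunit for 23, and the acidic stalk of the large subunit for 6. Of the 44 genes, 43 had enough counts to be tested, among 21277 tested genes.

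Cytosolic ribosomes translate the mRNAs of nuclear genes, and each holds a single copy of most of its proteins. In Arabidopsis every such protein is encoded by a small family of paralogous genes, so the cell can draw the same subunit from several loci. The 40S proteins take part in reading the mRNA, and the 60S proteins surround the centre in which peptide bonds form and the tunnel through which the new chain leaves. The stalk, made of P0 and of the P1 and P2 proteins, recruits the elongation factors. Ribosomal protein genes are expressed at high levels in young and dividing tissue, and plants that lack some of them have pointed leaves, altered leaf polarity or arrested embryos.

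RNA was sequenced from shoot apices of the Columbia accession in 3 genotypes. These were the wild type (WT), the ft-10 mutant, which lacks the florigen FT, and the tfl1-1 mutant, which carries a defective allele of TFL1, an FT relative that opposes flower formation. All plants were 42 days old and had been raised in short days. Each genotype was either left untreated or given FRP, a single 24 h photoperiod enriched in far-red light. Treated and untreated plants thus differed in day length, in light quality and, by the authors' methods, in light intensity. Leaves and roots had been removed, and several shoots were pooled in each replicate, so p-values cover the spread between these pools, taken as independent. In such bulk tissue fewer cells of a type and less RNA per cell cannot be told apart. Each of the 6 conditions had 3 replicates, giving 18 libraries. The labels mark 12 of them, 2 per condition, as used by the authors for differential expression. By the authors' methods, these were selected after a principal component analysis of the counts, so the choice was not blind to the data. The biological coefficient of variation was 0.0738 in the 12 libraries and 0.161 in all 18, and p-values from the 12 cover only the smaller spread. Outside those 12 were replicate 1 of untreated WT and of untreated ft-10, and replicate 2 of the untreated tfl1-1, treated WT, treated tfl1-1 and treated ft-10 groups. Below, levels are library-size-scaled counts (CPM) in replicates 1, 2 and 3 in that order, and tests come from the 12 libraries. Log2 fold changes are from edgeR with its quasi-likelihood test, and a gene is said to have risen or fallen where the p-value adjusted over all tested genes was at most 0.005.

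The sequence just upstream of the members shared a feature that did not enter their choice. In the 250 bases before the annotated gene start (RefSeq, assembly TAIR10.1), 31 of the 44 members (70.5%) held a site II element, searched as TGGGCC or TGGGCT on both strands, against 22.1% of 21192 tested genes with such a window. A telo box, searched as AAACCCTA on both strands, was found upstream of 5 members (11.4%) and of 3.73% of tested genes. Both elements were present in 3 members, and neither was present in 11 members (25%), against 75.6% of tested genes. The site II share was 64.4% among 59 other 40S protein genes, 70.4% among 81 other 60S protein genes and 37.5% among 32 plastid ribosomal protein genes. A match is a description of these letters and not a measured binding site. Site II and telo boxes are known from promoters of genes expressed in dividing plant cells.

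Shown here are the windows of the RPS6 pair, whose members had different log2 fold changes upon FRP, of AT4G00810, a stalk gene that held both elements, and of STV1, which held 5 site II matches. They are the reference sequence, written 5′ to 3′ on the gene's own strand so that the last base precedes the gene start, with site II and telo box letters in capitals. They lie at chr4:15347805-15348054 (RPS6A, minus strand), chr5:3260255-3260504 (RPS6B, minus strand), chr4:347294-347543 (AT4G00810, minus strand) and chr3:19662026-19662275 (STV1, minus strand).
RPS6A: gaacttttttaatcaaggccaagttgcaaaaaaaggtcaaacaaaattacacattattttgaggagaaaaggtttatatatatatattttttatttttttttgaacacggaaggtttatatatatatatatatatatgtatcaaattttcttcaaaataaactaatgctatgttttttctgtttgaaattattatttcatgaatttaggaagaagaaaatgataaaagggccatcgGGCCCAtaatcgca
RPS6B: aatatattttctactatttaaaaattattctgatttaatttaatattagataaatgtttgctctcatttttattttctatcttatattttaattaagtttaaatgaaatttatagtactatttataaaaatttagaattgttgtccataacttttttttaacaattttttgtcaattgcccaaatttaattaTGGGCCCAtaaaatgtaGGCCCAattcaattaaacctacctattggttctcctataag
AT4G00810: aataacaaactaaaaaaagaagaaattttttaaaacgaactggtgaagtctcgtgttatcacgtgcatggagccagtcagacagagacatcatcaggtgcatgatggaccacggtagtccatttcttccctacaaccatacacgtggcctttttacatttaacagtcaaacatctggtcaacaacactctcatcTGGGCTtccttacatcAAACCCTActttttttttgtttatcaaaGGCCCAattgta
STV1: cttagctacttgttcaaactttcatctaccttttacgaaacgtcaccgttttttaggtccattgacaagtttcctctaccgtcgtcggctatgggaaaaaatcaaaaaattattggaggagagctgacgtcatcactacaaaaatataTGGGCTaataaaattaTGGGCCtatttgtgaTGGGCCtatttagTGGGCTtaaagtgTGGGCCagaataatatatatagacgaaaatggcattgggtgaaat
RPS6A held 1 site II match and RPS6B held 3, of which 2 overlapped. AT4G00810 held 2 site II matches and 1 telo box.

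The members are short, closely related genes, so their own sequence was examined before their counts were compared. Of the 50-base windows along each member's annotated transcript, all were unique to the gene in 23 members, and at least 90% were unique in 39. The exceptions were AT5G27850 (84.0% unique), AT4G36130 (78.6%), AT2G40010 (58.0%), PGY2 (45.8%) and RPL27AB (1.83%). PGY2, an RPL9 gene named for its effect on leaf polarity, shared windows with AT1G33120, a further RPL9 gene. Reads were counted without regard to strand, and 98.3% of the exonic bases of RPL27AB overlap AT1G23300 on the opposite strand. RPL27AB had 0 counts in all 18 libraries and was not tested, so no level can be given for it. AT2G40010, a P0 gene, shared 50.2% of its exonic bases with AT2G40008 on the opposite strand, and its values are uncertain for that reason.

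Library depth ranged from 20470477 to 35851716 counts, with a median of 30942643.5. The 44 members together took 1.83% to 2.54% of a library's counts. Levels were compared between genes per kilobase of transcript. The highest was AT1G01100, a P1 gene, with a mean of 895 CPM per kilobase and a range from 538 to 1447. RPL10A followed with 835 (688 to 1121), EMB2296, an RPL8 gene, with 758 (597 to 1024), and RPS18C with 739 (481 to 1164). The ranges of these 4 genes over the 18 libraries overlapped. At the other end, AT2G40010 averaged 6.78 CPM per kilobase, RPSAb 10.7, RPL3B 16.0 and RPL10B 32.8, so paralogues of a family differed widely in level.

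Summed over the 44 genes, untreated WT had 20132, 25619 and 27568 CPM, and WT after FRP had 20564, 17919.8 and 19362 CPM. Untreated WT replicate 1 stood apart from replicates 2 and 3 and lay among the treated WT libraries, whereas replicates 2 and 3 were above all of them. In tfl1-1 the sums were 20444, 19911 and 20185 CPM without FRP and 23443, 18463 and 21539 CPM with it, and the groups overlapped. In ft-10 they were 21635, 20748 and 21035 CPM without FRP and 26134, 22574 and 24036 CPM with it, and every treated library was above every untreated one. The plot of summed levels shows these values beside those of other 60S genes and of plastid ribosomal protein genes, which are described further on.

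**Figure D1:**
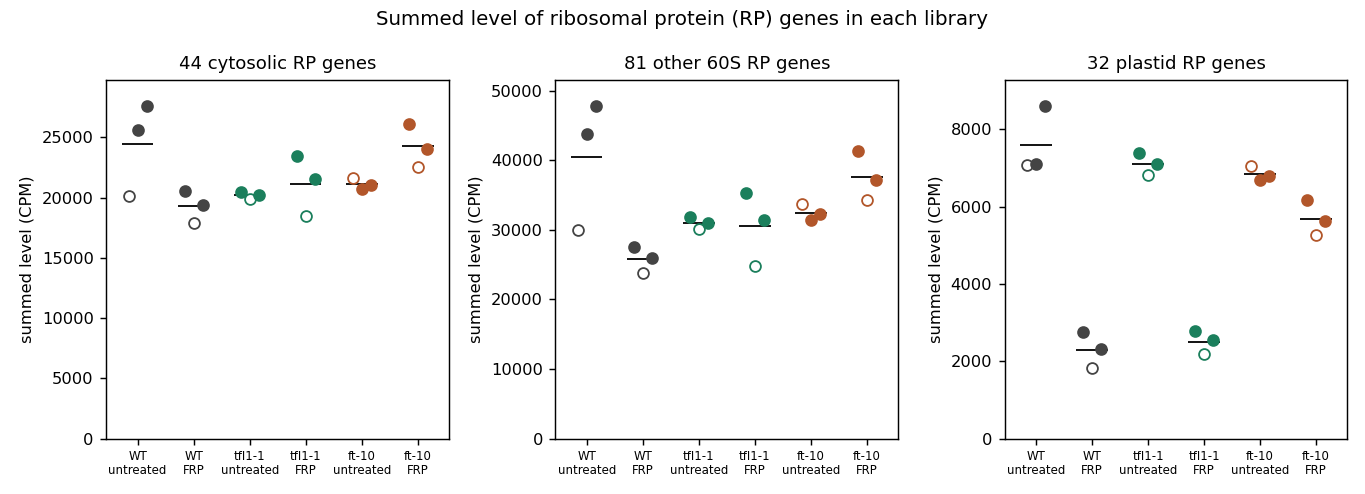
Summed CPM of the 44 members, of 81 other 60S genes and of 32 plastid ribosomal protein (RP) genes in each of the 18 libraries, by genotype and treatment. Filled points are the 12 libraries used for the tests, open points the 6 others, and bars the mean of 3 libraries. In the members, untreated WT replicate 1 (open point) lies at 20132 CPM, below the 25619 and 27568 CPM of replicates 2 and 3.

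In WT, FRP lowered most members. Of 43 tested, 28 fell and 4 rose, with a median log2 fold change of -0.62, while over all tested genes 33.4% fell, 33.0% rose and the median was -0.02. Of the other genes within the members' range of transcript length, 50.2% fell and 14.3% rose in WT. All 3 classes had negative medians, being -0.65 in the 40S class (10 of 15 fell and 1 rose), -0.44 in the 60S class (13 of 22 fell and 3 rose) and -1.05 in the stalk (5 of 6 fell). The individual log2 fold changes ran from -1.53 to 0.68.

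Among 40S genes the lowest log2 fold change was that of RPS15A. It was at 786, 1225 and 1324 CPM in untreated WT and at 526, 467 and 511 CPM after FRP, a log2 fold change of -1.30 ± 0.09 (SE, adjusted p = 1.2e-07). Each treated library was below each untreated one. The 3 genes of the RPS18 family, which sits at the head of the small subunit, all fell, RPS18C by 1.18, PFL1 by 0.97 and AT1G34030 by 0.91 on the log2 scale. Mutants of PFL1 have pointed first leaves. Both RPS13 genes fell too, RPS13A by 0.86 and AT3G60770 by 0.68. Of the RPS3 family, which lies where mRNA enters the ribosome, AT2G31610 (-0.70) and AT5G35530 (-0.65) fell, and AT3G53870 had a log2 fold change of -0.16 ± 0.06 (SE, adjusted p = 0.021).

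The 40S gene that rose was RPS6B, whose product is the S6 protein phosphorylated downstream of the TOR kinase. Its levels were 706, 481 and 461 CPM in untreated WT and 771, 698 and 740.4 CPM after FRP, with a log2 fold change of 0.68 ± 0.06 (SE, adjusted p = 6.7e-07). Untreated replicate 1, at the level of the treated libraries, made the groups overlap, and over all 18 libraries RPS6B did not pass the test, with 0.42 ± 0.12 (SE, adjusted p = 0.0051). Its paralogue RPS6A went the other way and fell by 0.50 (adjusted p = 4.4e-05), from 592, 771 and 855 CPM to 586, 516 and 562 CPM. All untreated libraries of RPS6A were above the treated ones, but replicate 1 only narrowly so, and over the 18 libraries RPS6A did not pass it either (adjusted p = 0.0086). Neither RPSa gene passed the test (RPSAA 0.14, RPSAb 0.20).

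The 60S genes that rose had coding lengths of 1170, 1221 and 1224 nt, at the long end of the members. RPL3A, whose protein reaches towards the peptide-forming centre, was at 1219, 996 and 1048 CPM in untreated WT and at 1502, 1377 and 1459 CPM after FRP, with a log2 fold change of 0.54 ± 0.06 (SE, adjusted p = 3.0e-06). AT3G09630, an RPL4 gene whose protein lines the exit tunnel, had 386, 351 and 413 CPM and 566, 519 and 541 CPM, and rose by 0.54. The other RPL4 gene, AT5G02870, had 436, 415 and 529.8 CPM and 639.7, 563 and 599 CPM, and rose by 0.39 ± 0.10 (SE, adjusted p = 0.0024). All 3 genes were higher in every treated than in every untreated WT library. RPL3B, the weakly expressed paralogue of RPL3A, had a log2 fold change of 0.03 and did not pass the test.

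Of the 60S genes that fell, RPL10C had the lowest log2 fold change, -1.07 ± 0.08 (SE, adjusted p = 1.8e-07), with 291, 453 and 486 CPM in untreated WT and 231, 185 and 216 CPM after FRP. The treated libraries were all below the untreated ones. RPL10 is among the last proteins to join the large subunit, and its other genes fell by less, RPL10B by 0.94 and RPL10A by 0.53. Also among the genes that fell were AT2G19730 of the RPL28 family (-0.95), RPL23AA (-0.90) and RPL23AB (-0.87), whose protein sits at the tunnel exit, AT5G27850 (-0.84), and the RPL24 genes STV1 (-0.66) and RPL24A (-0.62). STV1 is known for its role in reinitiation after upstream reading frames. PGY2 fell by 0.85 and EMB2296, needed for embryo development, by 0.41. AT1G70600 of the RPL27a family fell by 0.46, and ATL5, whose RPL5 protein carries a small ribosomal RNA into the large subunit, by 0.28. Not passing the test were RPL5B (-0.21), RPL18 (-0.13), AT4G36130 (-0.14), and the RPL7a genes AT2G47610 (-0.01) and AT3G62870 (0.11).

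The stalk had the 2 lowest log2 fold changes of all members. AT5G47700, a P1 gene, was at 422, 730.1 and 863 CPM in untreated WT and at 288, 234 and 264 CPM after FRP, and fell by 1.53 ± 0.12 on the log2 scale (SE, adjusted p = 2.9e-07). AT4G00810, also P1, was at 156, 229 and 282 CPM and 106, 91.7 and 100.3 CPM, and fell by 1.31. The third P1 gene, AT1G01100, had 581, 1032 and 1169.5 CPM and 514, 435 and 465 CPM, and fell by 1.17. In all 3, untreated replicate 1 was the lowest untreated library. Of the P0 genes, which anchor the P1 and P2 dimers to the ribosome, AT3G11250 (-0.94) fell, as did AT2G40010 (-0.76), with 10.6, 13.8 and 12.6 CPM and 8.07, 5.49 and 7.56 CPM, and the abundant AT3G09200 had a log2 fold change of 0.25 ± 0.07 (SE, adjusted p = 0.0065).

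These counts depended on untreated WT replicate 1, a library outside the 12. Over all 18 libraries, 20 members fell and 3 rose in WT, with 28.1% of all tested genes falling and 24.5% rising. The spread between replicates was also larger in the 18, with a biological coefficient of variation of 0.161 against 0.0738 in the 12. With replicate 1 as the only untreated WT library, whose spread is then assumed to be that of the other groups, 1 member (RPS18C) fell and 3 (AT5G02870, AT3G09630 and RPSAb) rose, while 16.0% of all genes fell and 10.7% rose. The median of the members was then -0.06. With replicate 1 left out and the other 17 libraries kept, 28 fell and 4 rose.

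**Figure D2:**
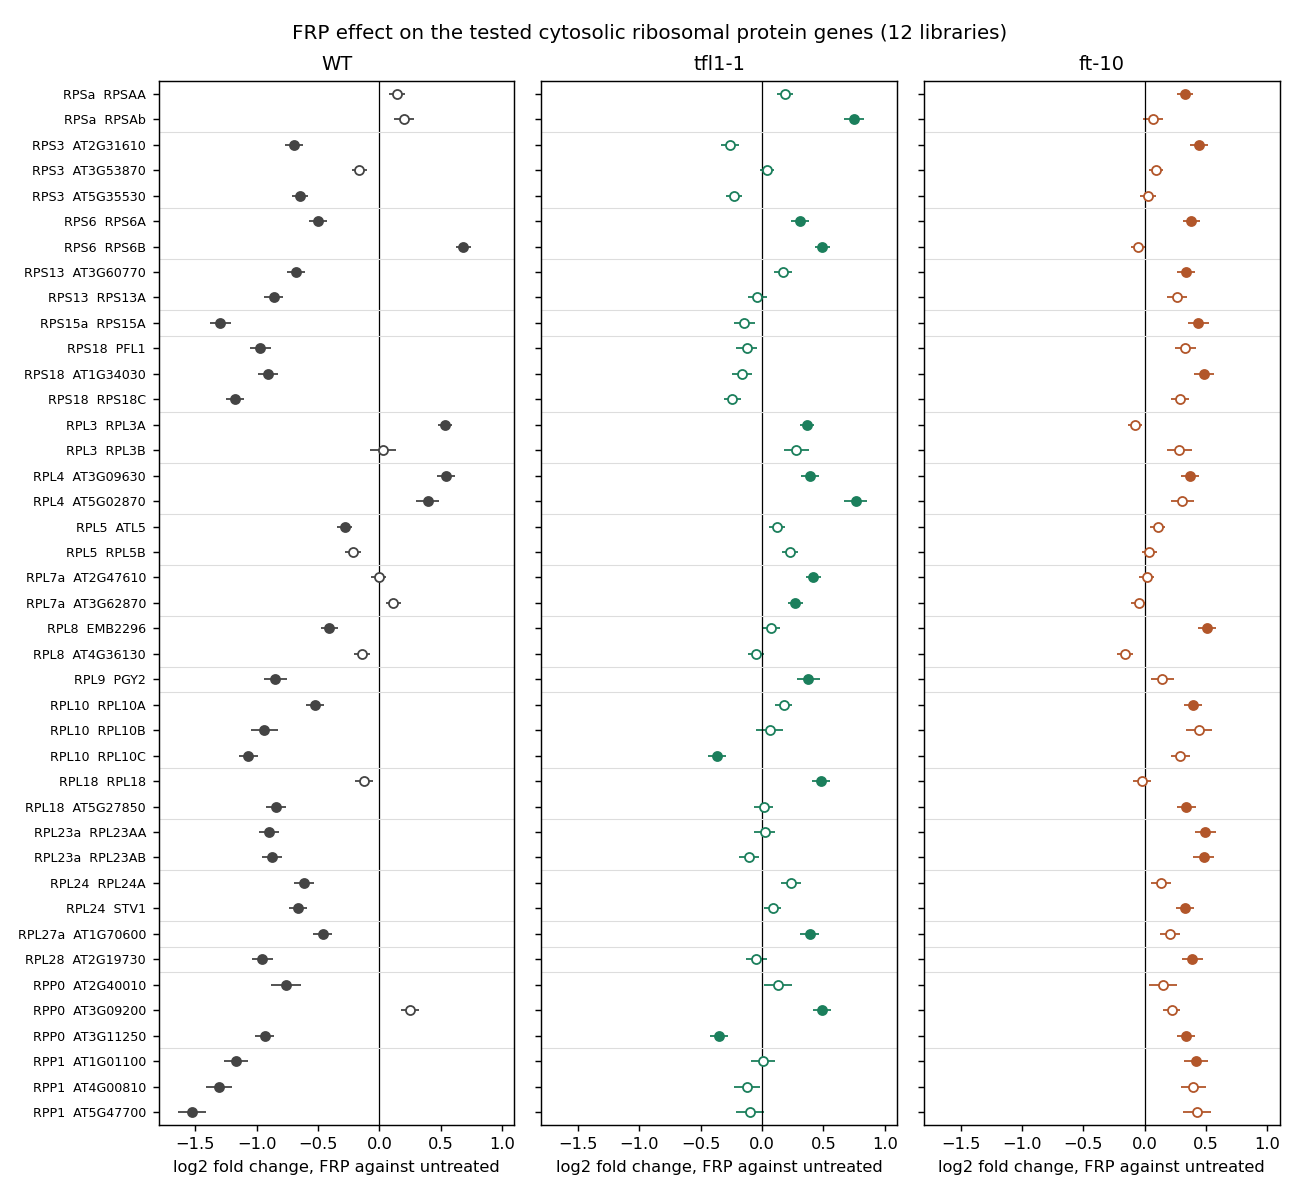
Log2 fold change upon FRP of 41 of the 43 tested members in WT, tfl1-1 and ft-10, from the 12 libraries, labelled with family and gene and set apart by family. Points are fitted values with SE bars, filled where the adjusted p was at most 0.005 and open otherwise. Over all 43, in WT 28 members were called lower and 4 higher, in tfl1-1 2 lower and 12 higher, and in ft-10 18 higher.

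In tfl1-1, FRP raised 12 members and lowered 2, beside 24.6% and 21.5% of all tested genes. The median of the members was 0.09, and of all genes 0.02. The 40S class had 3 genes that rose, the 60S class 8 that rose and 1 that fell, and the stalk 1 of each. The rest, 29 of 43 members, did not pass the test. Leaving out untreated or treated tfl1-1 replicate 1 each gave 7 that rose, and the number that fell ran from 0 without untreated replicate 1 or treated replicate 3 to 5 without treated replicate 1.

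AT5G02870, an RPL4 gene, rose most, from 337, 377 and 361 CPM in untreated tfl1-1 to 591, 612 and 593 CPM after FRP, a log2 fold change of 0.76 ± 0.10 (SE, adjusted p = 3.3e-05). RPSAb, the weakly expressed gene of the RPSa pair, rose from 11.3, 11.2 and 11.8 CPM to 19.5, 16.9 and 19.2 CPM, a log2 fold change of 0.75 ± 0.08 (SE, adjusted p = 1.2e-05). Treated and untreated tfl1-1 libraries were apart in both genes. RPS6B had 492, 533 and 524 CPM without FRP and 712, 695 and 716 CPM with it, and rose by 0.49 ± 0.06 (SE, adjusted p = 2.4e-05). RPS6A, at 564, 550.2 and 558 CPM and 723, 532 and 664 CPM, passed the test in the 12 libraries with 0.31 (adjusted p = 0.0028). Its treated replicate 2, outside the 12, was below all untreated libraries, and over the 18 libraries the adjusted p was 0.19. Further members that rose were AT3G09200 of the P0 family (0.49), RPL18 (0.48), AT2G47610 (0.42) and AT3G62870 (0.27) of the RPL7a family. AT1G70600 of the RPL27a family (0.39), AT3G09630 (0.39), PGY2 (0.38) and RPL3A (0.37) rose too. In AT1G70600 and PGY2, treated replicate 2 was again below all untreated libraries, at 501 and 225 CPM.

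The 2 members that fell in tfl1-1 were RPL10C and AT3G11250. RPL10C was at 331, 311 and 315 CPM without FRP and at 266, 190.0 and 235 CPM with it, a log2 fold change of -0.37 ± 0.08 (SE, adjusted p = 0.0012). AT3G11250 was at 99.8, 99.0 and 102 CPM and 83.5, 67.5 and 75.0 CPM, with -0.35 ± 0.07 (SE, adjusted p = 0.0014). Treated replicate 2, which was outside the 12, was the lowest library in both genes. The next in order, AT2G31610, had 447, 422 and 436 CPM without FRP and 385, 312 and 349.5 CPM with it, and its -0.26 ± 0.07 (SE, adjusted p = 0.0076) did not pass the test. Over all 18 libraries 8 members rose in tfl1-1, where 18.2% of all genes rose and 17.4% fell, and the median of the members was -0.01. None fell there by edgeR's test, with 4 lower at an unadjusted p under 0.05, and DESeq2 on the 12 libraries called 5 lower.

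In ft-10, FRP raised 18 members, 8 in the 40S class, 8 in the 60S class and 2 in the stalk, with a median log2 fold change of 0.33. Over all genes 12.8% rose, 12.6% fell and the median was -0.01. No member fell by edgeR's test, with 1 lower at an unadjusted p under 0.05 and 0 called lower by DESeq2.

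Among the members of large log2 fold change, EMB2296 went from 872, 791 and 809.7 CPM to 1205, 1008 and 1069.7 CPM, with 0.51 ± 0.07 (SE, adjusted p = 2.2e-04). RPL23AA went from 627, 595 and 606 CPM to 896, 727 and 796 CPM, with 0.49 ± 0.08 (SE, adjusted p = 7.0e-04). AT1G34030 went from 251, 232 and 237 CPM to 347, 276 and 309.6 CPM, and rose by 0.49. Treated and untreated ft-10 libraries did not overlap in these 3 genes, and treated replicate 1 was the highest and treated replicate 2, outside the 12, the lowest treated library. Further members that rose included RPL23AB (0.48), RPS15A and AT2G31610 (each 0.44), RPL10A (0.40), RPS6A (0.38) and the stalk genes AT1G01100 (0.42) and AT3G11250 (0.34). At the other end, AT4G36130 was at 217, 213 and 213 CPM without FRP and 199, 184 and 183 CPM with it, a log2 fold change of -0.16 ± 0.07 (SE, adjusted p = 0.071). RPL3A was at 1175, 1192 and 1187 CPM and 1112, 1129 and 1135 CPM, with -0.08 ± 0.06 (SE, adjusted p = 0.26), and neither passed the test. RPS6B was at 652, 662 and 641 CPM without FRP and 635, 626 and 619.9 CPM with it, with -0.05 ± 0.06 (SE, adjusted p = 0.48), and did not pass it. Over all 18 libraries 2 members rose in ft-10, where 5.43% of all genes rose and 6.49% fell, and without untreated WT replicate 1 the number was 6. Leaving out untreated ft-10 replicate 2 or 3, or treated ft-10 replicate 1, from the 12 libraries each gave 2.

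The difference in the FRP effect between genotypes was tested directly as an interaction. WT responded lower than ft-10 in 29 members and higher in 2, with a median difference of -0.91 in log2 fold change. In this contrast 29.2% of all genes were lower and 29.2% higher. In bins of rising transcript length from 724 to 1738 nt, other genes had medians of -1.13, -0.91, -0.65 and -0.27. The members in the same bins had -1.39, -1.02, -0.47 and -0.26. The 2 higher members were RPS6B (0.74) and RPL3A (0.62), and the largest difference was AT5G47700, at -1.96. The response in tfl1-1 was lower than in ft-10 in 11 members and higher in 5, with 19.8% and 20.5% of all genes and a median difference of -0.22. Leaving out 1 library moved these numbers to between 5 (without untreated ft-10 replicate 2 or untreated tfl1-1 replicate 1) and 17 (without treated tfl1-1 replicate 1) lower and between 3 and 6 higher. The 5 were RPSAb (0.68), RPS6B (0.55), RPL18 (0.50), RPL3A (0.45) and AT2G47610 (0.40). These contrasts share the ft-10 libraries.

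The response was higher in tfl1-1 than in WT in 31 members, where 13.9% of all genes were higher and 13.9% lower, and the median difference was 0.70. No member was lower by edgeR's test, with 1 at an unadjusted p under 0.05 and 0 called by DESeq2. Differences ran up to 1.43 for AT5G47700 and 1.23 for PGY2. In all 18 libraries these numbers were much smaller, and RPL3A was the higher member in both contrasts with ft-10 (0.48 for WT and 0.44 for tfl1-1). RPS6B passed the test in neither (adjusted p = 0.023 and 0.023), nor did RPSAb, RPL18 or AT2G47610 in the second. WT against ft-10 then gave 20 lower and 1 higher (background 18.4% and 12.7%), tfl1-1 against ft-10 gave 0 lower and 1 higher (9.22% and 8.67%), and tfl1-1 against WT gave 0 higher and 0 lower (2.18% and 2.57%), with 25 higher and 0 lower at an unadjusted p under 0.05. For tfl1-1 against ft-10, 12 members were lower and 7 higher at that level, beside 5599 and 5718 of 21442 tested genes. For tfl1-1 against WT, 3971 of the tested genes were higher and 2894 lower at that level. With untreated WT replicate 1 as the only untreated WT library, tfl1-1 against WT gave 1 higher and WT against ft-10 gave 3 lower.

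Without FRP, members were lower in both mutants than in WT. Untreated tfl1-1 had 31 lower members, with a median log2 difference of -0.44, where 12.7% of all genes were lower and 11.8% higher. The number was 10 without untreated tfl1-1 replicate 3, 17 without its replicate 1, 15 without untreated WT replicate 3 and 20 without untreated ft-10 replicate 3. None was higher by edgeR's test or by DESeq2, with 0 at an unadjusted p under 0.05 in edgeR. Untreated ft-10 had 29 lower members and 1 higher (RPS6B, 0.47), with a median of -0.45, where 19.3% of all genes were lower and 20.6% higher. Without untreated ft-10 replicate 2 or 3, 17 or 18 were lower. AT5G47700 was among the lowest in both, with -0.76 in tfl1-1 and -0.73 in ft-10. Both comparisons use the same untreated WT libraries, which also enter the FRP effect in WT. Over all 18 libraries no member passed edgeR's test in either comparison. Of all genes 2.76% were called lower and 4.05% higher in tfl1-1, and 0.210% and 0.201% in ft-10. At an unadjusted p under 0.05, 23 members were lower and 0 higher in tfl1-1, beside 4067 and 3280 of 21442 tested genes. In ft-10, 16 members were lower and 0 higher at that level, beside 3593 and 2512 of the tested genes. Of 9720 other genes in the members' length range, 1826 were lower and 1515 higher in tfl1-1 at that level. In ft-10 these numbers were 2374 and 672. The medians over the 18 libraries were -0.31 and -0.26. With untreated WT replicate 1 alone, and its spread assumed from the other groups, 1 member was lower and 1 higher for tfl1-1 and none for ft-10, where 1 was higher at an unadjusted p under 0.05.

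Transcript length moved with these results. The members' transcripts measured 724 to 1738 nt, with a median of 1172 nt, against 1696 nt over all tested genes. Among genes other than the members, the median log2 fold change upon FRP in WT went from -0.85 in the bin from 724 to under 900 nt to 1.68 at 4000 nt or more. The slope of log2 level on log2 length over all genes was 0.082 per doubling in untreated WT replicate 1, -0.352 and -0.367 in replicates 2 and 3, and 0.288 to 0.314 in WT after FRP. The library that stood apart in the summed level also stood apart in its length slope. In untreated tfl1-1 the slopes were between -0.252 and -0.098 and after FRP between 0.052 and 0.337, and in ft-10 between -0.014 and 0.041 untreated and between -0.211 and -0.021 after FRP.

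Within the members the same order was seen. Across the 43 genes, which share the libraries and are not independent, the log2 fold change in WT had a Pearson correlation of 0.58 with transcript length and 0.76 with coding length. The 18 members with under 600 nt of coding sequence had a median of -0.89 (17 fell, 0 rose), and the 25 longer ones -0.16 (11 fell, 4 rose). In tfl1-1 the medians were -0.01 and 0.18, and in ft-10 0.34 and 0.28. In the plot against length, the other genes of the members' length range (9645 genes) had medians of -0.46 in WT, -0.19 in tfl1-1 and 0.11 in ft-10, beside -0.62, 0.09 and 0.33 for the members. Of these genes 10.8% rose and 30.9% fell in tfl1-1, and 17.9% rose and 7.84% fell in ft-10.

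**Figure D3:**
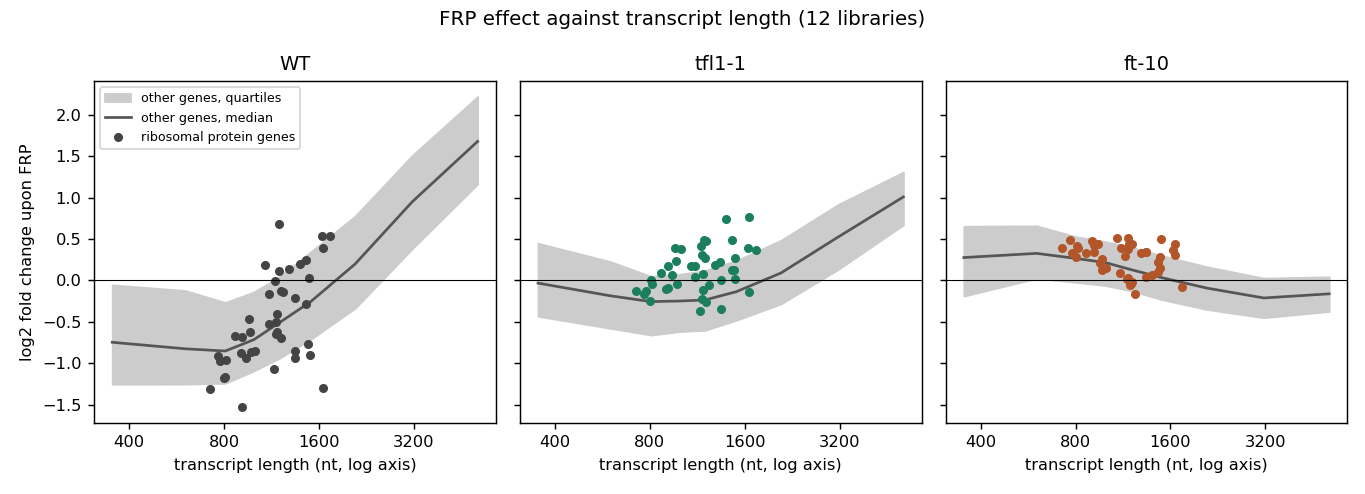
Log2 fold change upon FRP against transcript length (nt, log axis) in WT, tfl1-1 and ft-10, with 1 point for each of the 43 members and, over bins of length, the median (line) and quartiles (band) of all other tested genes. In WT the median of other genes goes from -0.85 in the bin from 724 to under 900 nt to 1.68 at 4000 nt or more, and the members lie at the short end of that range.

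With a smooth trend on transcript length removed from each library, 20 members fell and 11 rose in WT (35.3% and 23.8% of all genes), with a median of -0.14. In the stalk 5 genes fell, with a median of -0.64. In tfl1-1, 23 members rose and none fell, where 20.5% of all genes rose and 21.3% fell, with a median of 0.32 and 0 lower at an unadjusted p under 0.05. In ft-10, 7 rose and 1 fell (12.8% and 13.3%), with a median of 0.12. The response was higher in tfl1-1 than in WT in 29 members and lower in none, with a median of 0.52, where 16.5% of all genes were higher and 9.47% lower, and 2 members were lower at an unadjusted p under 0.05. The part of length in the results, and what sets it in these libraries, was not tested beyond these values.

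A comparison of paralogues within a family and within a library does not depend on the scaling of that library. Each gene's share of its family's counts was therefore computed over the listed members. A family was eligible where treated and untreated libraries did not overlap, in the same direction in WT and tfl1-1. Of the 4 eligible families with the largest shift, 3 are given. The lack of overlap in WT and tfl1-1 was thus set by the choice. As these shares chose the families, they are a description without a test. In the RPS6 pair, RPS6B made up 54.4%, 38.4% and 35.0% of the counts in untreated WT and 56.8%, 57.5% and 56.9% after FRP. In tfl1-1 it made up 46.6%, 49.2% and 48.4% without and 49.6%, 56.6% and 51.9% with FRP. In ft-10 the share went the other way, from 50.5%, 51.9% and 50.7% to 43.0%, 47.1% and 44.6%. By the choice of family, treated and untreated libraries did not overlap in WT and tfl1-1, and they did not overlap in ft-10 either. The nearest libraries were close, at 49.2% untreated and 49.6% treated in tfl1-1 and at 54.4% and 56.8% in WT. The transcripts of RPS6A and RPS6B measured 1170 and 1192 nt.

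RPL18 behaved alike. Its share against AT5G27850 was 45.7%, 36.7% and 35.1% in untreated WT and 48.5%, 47.2% and 47.3% after FRP, 38.2%, 40.1% and 38.9% and 46.2%, 48.7% and 46.7% in tfl1-1, and 42.8%, 44.8% and 44.3% and 38.2%, 40.5% and 38.7% in ft-10. It was thus higher after FRP in WT and tfl1-1, where the choice of family set the lack of overlap. In ft-10 it was lower after FRP, and the libraries did not overlap there either. AT5G27850 overlaps other genes on the opposite strand, so the absolute share is uncertain.

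In the RPL10 family, RPL10A took 71.7%, 70.3% and 70.0% in untreated WT and 76.9%, 79.1% and 77.6% after FRP, 71.1%, 71.4% and 71.5% and 77.8%, 78.3% and 78.0% in tfl1-1, and 72.5%, 72.7% and 72.8% and 74.1%, 74.7% and 73.9% in ft-10. RPL10C mirrored it, with 26.1%, 27.0% and 27.3% in untreated WT and 20.7%, 19.0% and 20.3% after FRP. RPL10B contributed little in any library, at 2.2%, 2.7% and 2.7% in untreated WT. RPL10A and RPL10C have coding lengths of 663 and 666 nt and transcripts of 1115 and 1151 nt.

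**Figure D4:**
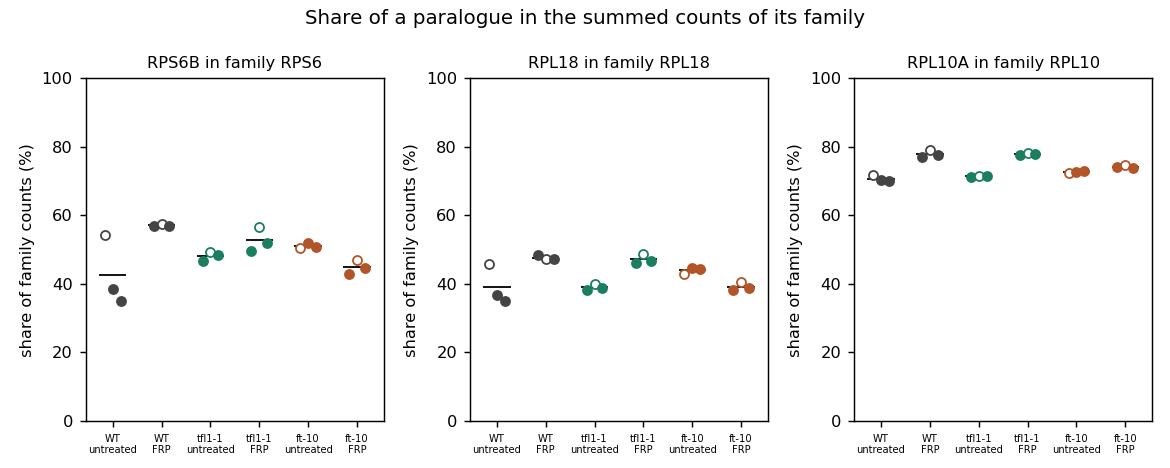
Share of the family's counts (percent) taken by RPS6B, RPL18 and RPL10A in each of the 18 libraries, by genotype and treatment. Filled points are the 12 libraries used for the tests and open points the 6 others, and bars are the mean of 3 libraries. In WT RPS6B took 35.0% to 54.4% without FRP and 56.8% to 57.5% with it.

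Further genes of the cytosolic ribosome were described beside the members, without a test of the lists. Of 58 tested 40S genes outside the list, 51 fell in WT, 1 fell and 2 rose in tfl1-1, and 30 rose in ft-10, with medians of -0.93, -0.03 and 0.37. Of 80 tested 60S genes outside the list, 71 fell and 3 rose in WT, 13 rose in tfl1-1 and 42 rose in ft-10, with medians of -0.90, 0.03 and 0.36. With all 18 libraries the rises in ft-10 were 0 of the 58 by edgeR's test (13 higher at an unadjusted p under 0.05) and 1 of the 80, where DESeq2 on the 12 libraries gave 38 and 48. The falls in WT were then 44 of 58 and 62 of 80. Plastid ribosomes, which translate the genes of the chloroplast, are built from a separate set of proteins. All 31 tested plastid ribosomal protein genes fell in WT and all 31 in tfl1-1, with medians of -1.65 and -1.47, and 4 fell in ft-10, with a median of -0.16. With the length trend removed, 30 fell in WT and 29 in tfl1-1.

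Genes that act before or beside the ribosome were described in the same way. Of 32 ribosome biogenesis genes, 18 rose and 7 fell in WT (median 0.38), 14 rose and 2 fell in tfl1-1 (0.17), and 3 rose and 5 fell in ft-10 (-0.14). With the length trend removed, 9 rose and 7 fell in WT, with a median of -0.03. Of 28 translation factor genes, 11 rose and 8 fell in WT, 13 rose and 4 fell in tfl1-1, and 12 rose and 1 fell in ft-10. Of 7 genes for TOR and the S6 kinase branch, 5 rose and 1 fell in WT, 6 rose in tfl1-1, and 2 rose and 1 fell in ft-10. With the length trend removed, 5 rose and 1 fell in WT, 4 rose in tfl1-1, and 4 rose and 1 fell in ft-10, with medians of 0.51, 0.38 and 0.45. Among them, the S6 kinase gene AT3G08720 had a log2 fold change of 3.69 in WT, 1.96 in tfl1-1 and 0.82 in ft-10. It passed the test in all 3 genotypes in the 12 libraries. Over all 18 libraries no gene of the 7 exceeded a log2 fold change of 2.41 in WT. In the 18 libraries none of the 7 genes rose in ft-10 by edgeR's test, with 1 higher at an unadjusted p under 0.05, where DESeq2 on the 12 called 2. AT1G50030, which encodes the TOR kinase, had 2.91, 1.48 and 0.39, and passed it in WT and tfl1-1. The values given for AT3G08720 and AT1G50030 are not adjusted for transcript length. Genes of 4000 nt or more had medians of 1.68 in WT and 1.01 in tfl1-1. The part of length in the values of these genes was not tested.

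**Figure D5:**
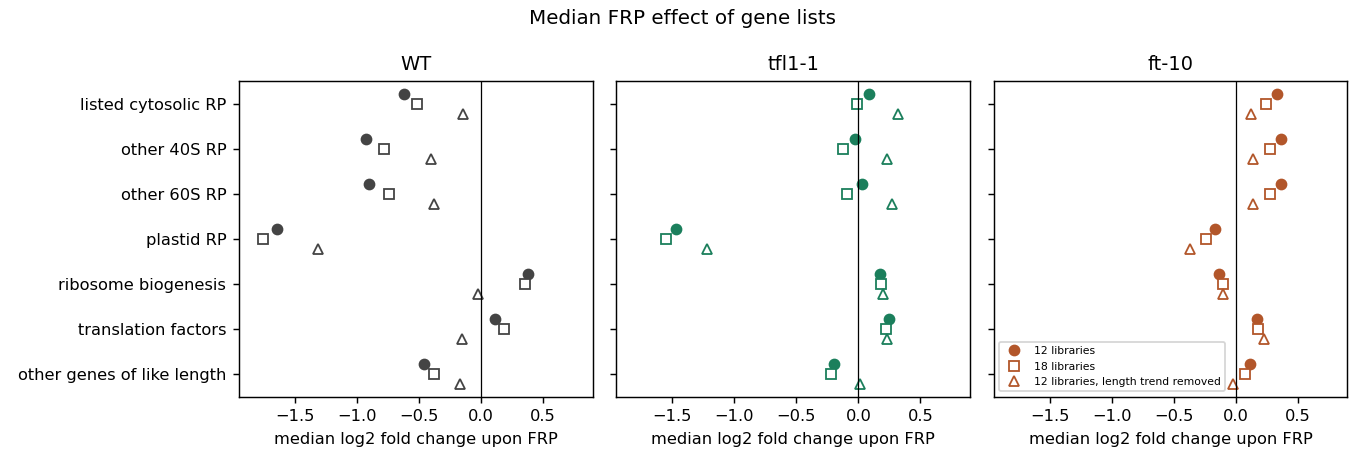
Median log2 fold change upon FRP of the 43 tested members, of the other 40S and 60S genes, of the plastid ribosomal protein, biogenesis and translation factor lists, and of other genes in the members' length range, in WT, tfl1-1 and ft-10, in the 12 libraries (filled circles), all 18 libraries (open squares) and the 12 libraries with the length trend removed (open triangles). The plastid list has medians of -1.65 in WT and -1.47 in tfl1-1, where the members have -0.62 and 0.09.

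Levels of marker genes moved with the treatment as well. For 9 photosynthesis genes of leaves, the summed level ranged from 14017 to 15424 CPM in untreated WT and from 3006 to 4430 CPM after FRP, from 13366 to 14541 and from 3148 to 3769 CPM in tfl1-1, and from 11839 to 12965 and from 8173 to 9281 CPM in ft-10. Of the 9, 8 fell in WT, 8 in tfl1-1 and 3 in ft-10. For 5 genes of dividing cells it was 209.9, 120.5 and 126 CPM in untreated WT and 125, 95.8 and 108 CPM after FRP. It was 144.4 to 145.6 and 114.2 to 131.6 CPM in tfl1-1, and 194.6 to 201.3 and 114.6 to 117.8 CPM in ft-10. Of the 5, 1 fell in WT, 2 in tfl1-1 and 5 in ft-10, and 0 rose. Untreated WT replicate 1 was thus the highest WT library in these genes and the lowest untreated one in the members. The 5 meristem genes summed to 149 to 204 CPM in untreated WT and 324 to 414 CPM after FRP, to 179 to 191 and 372 to 424 CPM in tfl1-1, and to 146 to 156 and 342 to 345 CPM in ft-10. Of the 4 that were tested, 2 rose in each genotype and 1 fell in WT, where their median was -0.02. In any library the 3 root genes, of which 1 was tested, summed to at most 3.91 CPM. The part of these cell types in the members' values was not tested.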

How the data were processed

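RNA-seq counts of 18 libraries were used, as single-end reads per gene for 37336 genes. Raw counts were deposited by the authors, who used Trimmomatic for trimming, STAR 2.5.3a for alignment to TAIR10 and HTSeq 0.7.2, without strand, for counting on Araport11. The counts ranged from 20470477 to 35851716 per library. Reads with more than 1 position (4.34% to 7.07%), ambiguous reads (2.78% to 3.40%) and reads without a feature (0.552% to 0.892%) were left out of totals and tests.

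Groups came from the sample labels. A gene was tested where 2 or more libraries had 10 or more counts, with edgeR 4.0.16 (TMM scaling, quasi-likelihood test, limma 3.58.1, R 4.3.3) in one fit of all 6 conditions, on the 12 libraries that the labels mark as used by the authors, with Benjamini-Hochberg adjustment over all tested genes. CPM values used TMM scaling over all 18 libraries. The biological coefficient of variation was 0.0738 in the 12 libraries and 0.161 in all 18. No 2 replicates agreed within sampling noise (lowest chi-square per degree of freedom 2.34). In every group but untreated WT, the members' summed level in replicate 3 lay between those of replicates 1 and 2. In treated tfl1-1 the chi-square per degree of freedom was 73.4 between replicates 1 and 2, 11.7 between 1 and 3 and 28.5 between 2 and 3. The 12 libraries hold replicate 3 of every group. Whether the replicates are independent was not tested.

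Length trends were removed with a smooth curve (5 degrees of freedom) in each library. Lengths, gene starts and upstream windows came from RefSeq on TAIR10.1. The members and gene lists were chosen with earlier results of these data known. Members named with values in every library were the 3 with the largest and the 3 with the smallest log2 fold change in each genotype, members called against the majority, those of the 4 families with the largest share shift (as shares), and those of highest and lowest level (in WT). One of these 4 families is not reported here by name, though its genes are in the counts and medians. Alternatives were all 18 libraries, each library left out, the replicate number as a block, DESeq2 1.42.0, its size factors, library totals, other count minimums, a 2-fold minimum, an adjusted p of at most 0.05, length and GC trends, and the groups compared alone. Coding length trends and fits around untreated WT replicate 1 were chosen after seeing the data. The fits were tested on simulated data. Plots used matplotlib 3.10.9 in Python 3.11.15.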

Additional observations from a re-analysis of the deposited data

Results flagged for a closer look

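In the 12 libraries, the response of some members to FRP differed between genotypes by the interaction test. Between WT and ft-10, 29 members responded lower in WT and 2 higher, beside 29.2% and 29.2% of all genes. Between tfl1-1 and ft-10, 11 responded lower in tfl1-1 and 5 higher, beside 19.8% and 20.5% of all genes. Between tfl1-1 and WT, 31 responded higher in tfl1-1, beside 13.9% of all genes. Over all 18 libraries these numbers were 20 and 1, 0 and 1, and 0 in the same order. The shares of all genes were then 18.4% and 12.7%, 9.22% and 8.67%, and 2.18%.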

How the results depend on the processing

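The number of members that fell in WT was 19 to 30 under all alternatives other than a 2-fold minimum (6) and untreated WT replicate 1 as the only untreated WT library (1). No gene named by rule for its log2 fold change or call in a genotype changed direction in that genotype. Genes named only for a family share or a level were not part of this check. Over the alternatives of the checked genes, 431 values stayed on their side of the threshold, 58 lost it and 12 gained it. The cause of these changes was not tested.

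With all 18 libraries, the median was -0.52 in WT, -0.0082 in tfl1-1 and 0.25 in ft-10, with 0 members falling in tfl1-1 and 2 rising in ft-10. In the same libraries WT against ft-10 gave 1 higher, tfl1-1 against ft-10 0 lower and 1 higher, tfl1-1 against WT 0 higher, and untreated tfl1-1 and ft-10 against WT 0 lower each, with 0 higher in ft-10. Without untreated WT replicate 1, the 17 libraries gave medians of -0.69, -0.0083 and 0.25, with 4 falling in tfl1-1, 6 rising in ft-10 and 2 higher in untreated ft-10. With replicate 1 as the only untreated WT library, the median in WT was -0.061 with 1 falling. WT against ft-10 then gave 3 lower and 0 higher, tfl1-1 against WT 1 higher, untreated ft-10 0 lower and 0 higher, and untreated tfl1-1 1 lower and 1 higher.

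With the transcript length trend removed, the medians were -0.14, 0.32 and 0.12 in WT, tfl1-1 and ft-10. In WT 11 rose, in tfl1-1 23 rose and 0 fell, and in ft-10 7 rose and 1 fell. WT against ft-10 gave 8 higher, tfl1-1 against ft-10 0 lower and 14 higher, and untreated ft-10 15 lower and 2 higher. With the coding length trend removed, the medians were -0.11, 0.33 and 0.091, with 9 rising in WT, 27 rising and 0 falling in tfl1-1, and 6 rising and 2 falling in ft-10. The contrasts gave 7 higher for WT against ft-10, 1 lower and 15 higher for tfl1-1 against ft-10, and 14 lower and 2 higher for untreated ft-10. With length and GC trends removed, the medians were -0.30, 0.28 and 0.16, with 23 rising and 0 falling in tfl1-1 and 6 rising and 3 falling in ft-10, 5 higher for WT against ft-10, and 2 lower and 13 higher for tfl1-1 against ft-10.

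Library totals without TMM gave medians of -0.48 in WT and 0.19 in tfl1-1, 9 rising in WT, 0 falling in tfl1-1, 4 higher for WT against ft-10, 5 lower and 8 higher for tfl1-1 against ft-10, and 2 higher in untreated ft-10. This scaling moved the median of all genes by 0.143 in WT and 0.103 in tfl1-1 on the log2 scale. DESeq2 gave 5 falling in tfl1-1 and 2 higher in untreated ft-10. A minimum of 1 count in total gave 5 and 2 likewise. An adjusted p of at most 0.05 gave 7 rising in WT, 28 rising in ft-10, 5 falling in tfl1-1, 20 lower and 8 higher for tfl1-1 against ft-10, and 2 higher in untreated ft-10. A 2-fold minimum left 6 falling and 0 rising in WT, 0 rising in tfl1-1 and in ft-10 and 0 falling in tfl1-1, 18 lower and 0 higher for WT against ft-10, 0 either way for tfl1-1 against ft-10, 5 higher for tfl1-1 against WT, 0 lower in untreated tfl1-1, and 0 lower and 0 higher in untreated ft-10. The groups compared alone gave 0 falling in tfl1-1 and 18 lower in untreated tfl1-1.

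Same-numbered libraries were compared by the correlation of their deviations from the group means. Of 45 such pairs, 14 correlated above 0.1 and 9 under -0.1, between -0.561 and 0.482. All pairs under -0.1 held untreated WT. Pairs of replicate 1 or of replicate 2 without untreated WT were all positive, up to 0.482 for treated ft-10 and treated tfl1-1. Pairs of replicate 3 lay between -0.0786 and 0.0936. The deviations within a group cancel out by construction, so pairs of replicate 1 and pairs of replicate 2 are not independent of each other. Whether the replicate numbers pair the samples was not tested beyond these values. The replicate block in the 12 libraries gave medians of -0.70 in WT and 0.23 in ft-10, 10 rising in ft-10, 5 falling in tfl1-1 and 2 higher in untreated ft-10. The replicate block in all 18 libraries gave medians of -0.51, -0.012 and 0.24, 7 rising and 0 falling in tfl1-1, 1 rising in ft-10, 12 lower and 1 higher for WT against ft-10, 0 either way for tfl1-1 against ft-10, 0 higher for tfl1-1 against WT, 0 lower in untreated tfl1-1, and 0 either way in untreated ft-10.

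Leaving out each library in turn gave 27 to 28 falling and 3 to 4 rising in WT (median -0.69 to -0.59), 7 to 12 rising and 0 to 5 falling in tfl1-1 (median -0.032, without treated replicate 1, to 0.12), and 2 to 20 rising in ft-10 (median 0.26 to 0.39). The contrasts gave 27 to 29 lower and 2 higher for WT against ft-10, 5 to 17 lower and 3 to 6 higher for tfl1-1 against ft-10, 22 to 31 higher for tfl1-1 against WT, 10 to 30 lower in untreated tfl1-1, and 17 to 28 lower and 1 to 2 higher in untreated ft-10.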
